A study of Capra hircus with 14 samples.

Results

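The EGF receptor family and its ligands were followed through the culture, in an induction medium, of goat cells labelled as fibroblasts on day 0. The 10 genes were taken by symbol from the deposited gene table: the receptors EGFR, ERBB2 and ERBB3 and the ligands TGFA, AREG, EREG, EPGN, BTC, HBEGF and NRG1. All 10 were found among the 30277 genes of the table, and all 10 were among the 15712 genes tested after a filter on low counts. EPGN passed that filter only through day 8, the 1 day on which both libraries held at least 10 counts, so it had to differ between days.

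The series holds 14 RNA-seq libraries of Capra hircus, with 2 libraries on each of 7 days, and set out to convert fibroblasts into mammary epithelial cells by small molecules. The day 0 cells were wild-type GEF cells, labelled as fibroblasts and grown in DMEM with fetal bovine serum. The cells of days 1, 2, 3, 4, 6 and 8, labelled CiMEC and induced mammary epithelial cells from day 1 onward, had been moved to a medium named R induction medium, on plates coated with Matrigel, and the medium was renewed during culture. The sources used here do not list what that medium held, so whether it had a ligand or an inhibitor of these receptors cannot be stated. All groups carry the genotype label WT and the treatment label reprogramming, day 0 included. Medium, time in culture and, as far as stated, the Matrigel coating changed together after day 0 and cannot be told apart. No library of cells kept in fibroblast medium was analysed here.

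The receptors are tyrosine kinases that pair at the cell surface when a ligand binds, and the pairs signal through the RAS-ERK and PI3K routes. The ligands are made as membrane-anchored precursors and are cut free by ADAM proteases. From work in mice and humans, the family is known for the growth of skin and gland epithelium, and amphiregulin, the product of AREG, is needed for the mammary ducts of mice to elongate at puberty.

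Library totals were 20515126 to 24746010 estimated counts, and 3 counts, taken as the floor of detection, equal 0.121 to 0.146 CPM. CPM is a count relative to the scaled library size. The floor covers counting error only. Fold changes are on the log2 scale with a standard error (SE) and come from edgeR's quasi-likelihood test, and an adjusted p under 0.05, over all genes tested, counts as a call. Many called changes are small, because libraries of a day lay close together. Whether the libraries of a day were made from separate cultures is not stated in the labels, and a p-value here therefore reflects the spread among these libraries alone, which may be technical. In these bulk libraries, fewer cells of a type and less RNA per cell cannot be told apart.

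Between day 0 and day 8 the receptors and ligands moved in both directions. EGFR, ERBB3, AREG, HBEGF, BTC and NRG1 were higher on day 8, and ERBB2, EREG and TGFA were lower. EPGN is left out of the counts of members called, because the filter it passed fixed its direction. Of the other 9, 6 were called higher and 3 lower, where 36.0% of all genes tested were called higher and 35.0% lower. The changes of EGFR, ERBB3, AREG and BTC upward and of EREG and TGFA downward were at least 2-fold, and those of ERBB2, HBEGF and NRG1 were smaller. Apart from that limit on size, each of these 9 calls held under every alternative setting and with each library left out. Over any of the 7 days all 9 were called, where 92.4% of all genes tested were.

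**Figure D1:**
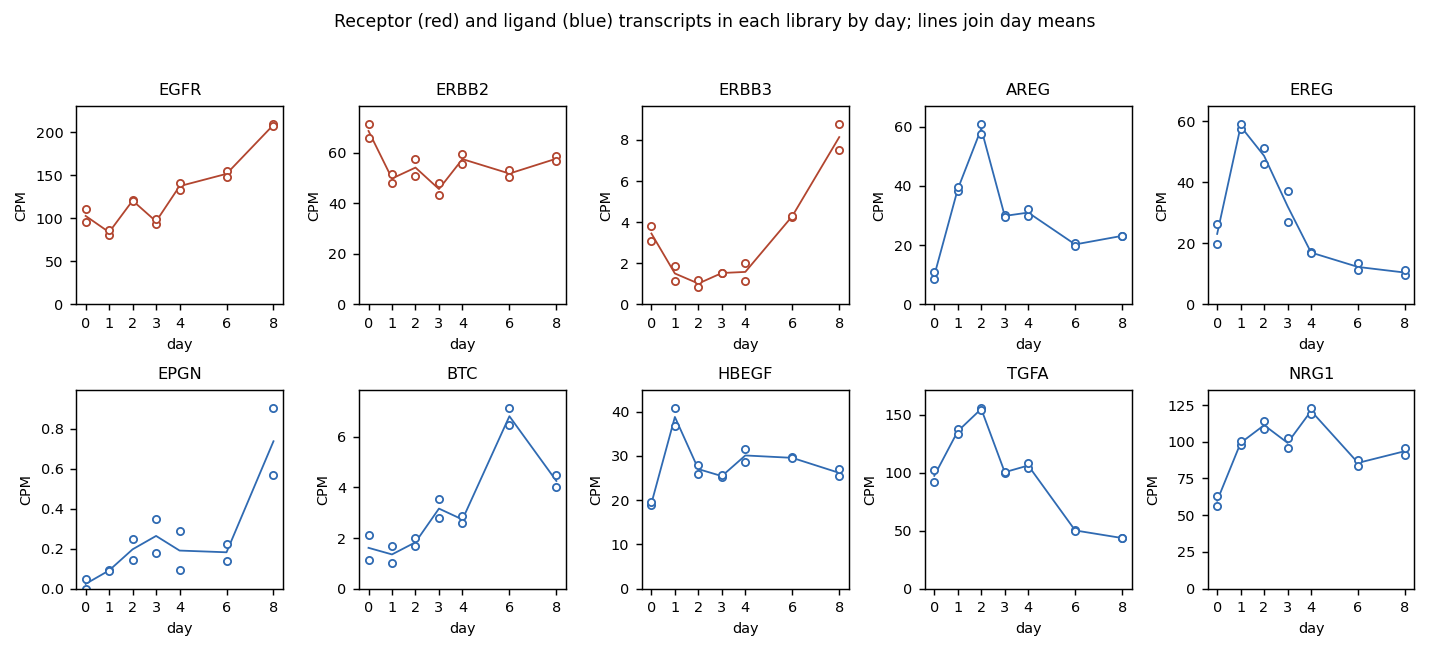
Level of each receptor (red) and ligand (blue) in CPM (vertical axis, starting at 0 and scaled for each gene) by day (horizontal axis); each circle is 1 library and lines join the day means. EGFR was highest on day 8, AREG and TGFA on day 2, EREG and HBEGF on day 1 and BTC on day 6.

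EGFR encodes the receptor that binds TGFA, AREG, EREG, EPGN, BTC and HBEGF. Its level was 95.5 and 111 CPM in the libraries of day 0, 81.2 and 86.8 on day 1, 121 and 120.3 on day 2, and 93.4 and 99.8 on day 3. It then stood at 134 and 142 CPM on day 4, 156 and 148 on day 6, and 210.1 and 208 on day 8. Both libraries of day 8 lay above all 12 others, and the day 1 libraries were the lowest pair. From day 0 to day 8 the log2 fold change was 1.02 ± 0.06 (SE; adjusted p = 3.53e-13), and from day 1 to day 8 it was 1.31 ± 0.06 (adjusted p = 3.79e-15). The course alternated early on, as did those of other genes. ADAM15, RNF41 and GAB2, from the lists described below, also fell, rose, fell and rose up to day 4, while ADAM9 rose, fell, rose and fell. EGFR fell by 0.29 ± 0.06 on the log2 scale to day 1 (adjusted p = 0.0003), rose by 0.52 ± 0.06 to day 2 (adjusted p = 3.55e-07), fell by 0.32 ± 0.06 to day 3 (adjusted p = 0.000203) and rose by 0.51 ± 0.06 to day 4 (adjusted p = 3.44e-07). The step from day 4 to day 6, at 0.14 ± 0.06, was not called (adjusted p = 0.0552) but was called under 7 of the alternative settings, with values of 0.14 to 0.28. The counts of EGFR held fractions in all 14 libraries, and the counting step that gave the fractions is not known.

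ERBB2 encodes a receptor with no known ligand of its own that pairs with the other receptors. Its level was 71.4 and 65.7 CPM on day 0, 51.5 and 48.1 on day 1, 50.6 and 57.5 on day 2, and 43.1 and 48.1 on day 3. On days 4, 6 and 8 its libraries lay between 50.3 and 59.4 CPM. The day 0 libraries were above all others, and the highest day mean was 1.503 times the lowest, the narrowest range among the 10 genes. ERBB2 fell by 0.46 ± 0.07 on the log2 scale from day 0 to day 1 (adjusted p = 6.23e-06), and was lower by day 8 with a log2 fold change of -0.25 ± 0.07 (adjusted p = 0.00381). The fall from day 2 to day 3 of -0.24 lost its call without replicate 2 of day 2 (adjusted p = 0.21), without replicate 1 of day 3 (0.149) and with library totals as the only scaling (0.11). The rise from day 1 to day 8 of 0.21 likewise lost its call without replicate 2 of day 1 (adjusted p = 0.151), without replicate 1 of day 8 (0.0929) and with library totals (0.107).

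ERBB3 encodes a receptor for neuregulins whose own kinase is weak, so that it signals through its partners. It was a low transcript, at 3.80 and 3.11 CPM on day 0, 1.157 and 1.86 on day 1, and 1.19 and 0.849 on day 2. Levels were 1.54 and 1.52 CPM on day 3, 2.01 and 1.156 on day 4, 4.26 and 4.33 on day 6, and 8.79 and 7.49 on day 8. Every library of days 1 to 4 lay below both libraries of day 0, and every library of days 6 and 8 lay above them. ERBB3 fell by 1.19 ± 0.26 on the log2 scale to day 1 (adjusted p = 0.000348), rose by 1.44 ± 0.26 from day 4 to day 6 (adjusted p = 4.35e-05) and by 0.92 ± 0.20 from day 6 to day 8 (adjusted p = 0.000604). The log2 fold change was 1.23 ± 0.21 from day 0 to day 8 (adjusted p = 1.37e-05) and 2.42 ± 0.24 from day 1 to day 8 (adjusted p = 2.89e-09). ERBB4, the remaining receptor of the family, had at most 1 count in a library and was not tested.

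TGFA encodes transforming growth factor alpha, a ligand of EGFR. Its level was 92.4 and 102 CPM on day 0, 138 and 134 on day 1, 156 and 154 on day 2, and 99.9 and 101 on day 3. It was 104 and 108 CPM on day 4, 50.4 and 50.02 on day 6, and 43.9 and 43.4 on day 8. The libraries of days 1 and 2 were above all others and those of days 6 and 8 below all others. TGFA rose by 0.48 ± 0.06 on the log2 scale to day 1 (adjusted p = 4.24e-08), and its largest step was from day 4 to day 6, when it fell by 1.08 ± 0.06 (adjusted p = 3.43e-13). By day 8 the log2 fold change was -1.158 ± 0.06 against day 0 (adjusted p = 1.27e-14) and -1.64 ± 0.06 against day 1 (adjusted p = 1.14e-17). The rise from day 1 to day 2 of 0.19 lost its call without replicate 2 of day 1 (adjusted p = 0.06) and with library totals (0.0762). The fall from day 6 to day 8 of -0.20 lost it without replicate 1 of day 6 (adjusted p = 0.0505) and without replicate 2 of day 8 (0.0638).

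AREG encodes amphiregulin, a ligand of EGFR that binds heparin. Its level was 8.43 and 11.1 CPM on day 0, 38.2 and 39.6 on day 1, 60.9 and 57.6 on day 2, and 30.2 and 29.6 on day 3. It was 29.9 and 32.1 CPM on day 4, 20.8 and 19.7 on day 6, and 23.1 and 23.2 on day 8. All 12 libraries of the later days lay above both of day 0, with the highest values on day 2. AREG rose by 1.99 ± 0.10 on the log2 scale to day 1 (adjusted p = 1.03e-14) and by 0.61 ± 0.08 to day 2 (adjusted p = 8.32e-07), then fell by 0.99 ± 0.08 to day 3 (adjusted p = 8.05e-10). From day 4 to day 6 it fell by 0.61 ± 0.09 (adjusted p = 3.09e-06). On day 8 AREG was still higher than on day 0, at 1.24 ± 0.10 on the log2 scale (adjusted p = 1.06e-10), and lower than on day 1, at -0.75 ± 0.09 (adjusted p = 3.74e-08).

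EREG encodes epiregulin, which binds EGFR and ERBB4. Its level was 19.8 and 26.4 CPM on day 0, 57.4 and 59.1 on day 1, 51.1 and 46.1 on day 2, and 37.3 and 27.0 on day 3. It was 17.2 and 16.8 CPM on day 4, 13.4 and 11.1 on day 6, and 9.74 and 11.2 on day 8. The libraries of day 1 were the highest, and from day 4 onward every library lay below both of day 0. EREG rose by 1.34 ± 0.12 on the log2 scale to day 1 (adjusted p = 7.84e-10), and later fell by 0.60 ± 0.12 from day 2 to day 3 (adjusted p = 0.000188) and by 0.91 ± 0.13 from day 3 to day 4 (adjusted p = 3.06e-06). By day 8 the log2 fold change was -1.14 ± 0.15 against day 0 (adjusted p = 2.26e-07) and -2.48 ± 0.13 against day 1 (adjusted p = 4.24e-14). The step from day 1 to day 2, -0.26, was not called (adjusted p = 0.0598) but was called under 7 of the alternative settings. The fall from day 4 to day 6 of -0.47 (adjusted p = 0.0102) lost its call without replicate 2 of day 6 (adjusted p = 0.123), with library totals (0.0938) and with DESeq2 (0.0815).

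EPGN encodes epigen, another ligand of EGFR, and was close to the floor of detection on most days. It had 0 and 1 counts in the libraries of day 0, 2 and 2 on day 1, 3 and 5 on day 2, 4 and 9 on day 3, 6 and 2 on day 4, 3 and 5 on day 6, and 12 and 21 on day 8. Both libraries of day 8 were above all others. Between 1 count on day 0 and 33 counts on day 8 the ratio per library size was 32. The 95% counting interval was 5.35 to 1300, which covers counting error only. It is no test of a change, since the day 8 counts let EPGN pass the filter. No p-value is given for EPGN, since it was tested only through its counts on day 8.

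BTC encodes betacellulin, which binds EGFR and ERBB4. Its level was 2.11 and 1.11 CPM on day 0, 1.02 and 1.68 on day 1, 1.66 and 2.00 on day 2, and 3.53 and 2.80 on day 3. It was 2.87 and 2.59 CPM on day 4, 7.15 and 6.49 on day 6, and 4.51 and 4.00 on day 8. Libraries of days 0, 1 and 2 overlapped, those of day 6 were the highest, and those of day 8 were next. BTC rose by 1.32 ± 0.22 on the log2 scale from day 4 to day 6 (adjusted p = 2.72e-05), and the log2 fold change of day 8 was 1.40 ± 0.26 against day 0 (adjusted p = 4.18e-05) and 1.64 ± 0.27 against day 1 (adjusted p = 7.54e-06). The rise from day 2 to day 3 of 0.78 (adjusted p = 0.018) lost its call without replicate 1 of day 2 (adjusted p = 0.133) and without replicate 1 of day 3 (0.137). The fall from day 6 to day 8 of -0.68 (adjusted p = 0.00959) lost it without replicate 1 of day 6 (adjusted p = 0.0736) and without replicate 2 of day 8 (0.087).

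HBEGF encodes a heparin-binding ligand of EGFR and ERBB4. Its level was 19.0 and 19.5 CPM on day 0, 36.8 and 40.9 on day 1, 26.0 and 28.02 on day 2, and 25.2 and 25.7 on day 3. Over days 4, 6 and 8 the libraries lay between 25.4 and 31.7 CPM. Day 0 was below and day 1 above every other library, and the libraries of days 2 to 8 lay between them. HBEGF rose by 1.01 ± 0.08 on the log2 scale to day 1 (adjusted p = 1.32e-10) and the change to day 2 was -0.52 ± 0.08 (adjusted p = 7.93e-06). Day 8 stayed above day 0, at 0.44 ± 0.09 on the log2 scale (adjusted p = 7.11e-05), and below day 1, at -0.57 ± 0.08 (adjusted p = 9.66e-07). The rise from day 3 to day 4 of 0.24 (adjusted p = 0.0153) lost its call without replicate 1 of day 3 (adjusted p = 0.0729), replicate 2 of day 3 (0.0512) or replicate 2 of day 4 (0.194), with library totals (0.256), with DESeq2 (0.08) and with a fit of those days alone (0.0842).

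NRG1 encodes neuregulin 1, a ligand of ERBB3 and ERBB4 rather than of EGFR. Its level was 56.4 and 63.3 CPM on day 0, 97.9 and 101 on day 1, 109 and 114 on day 2, and 96.0 and 103 on day 3. It was 119 and 123 CPM on day 4, 87.5 and 83.7 on day 6, and 91.3 and 96.0 on day 8. Every later library was above both of day 0, and those of day 4 were the highest. NRG1 rose by 0.73 ± 0.06 on the log2 scale to day 1 (adjusted p = 2.88e-10) and by 0.29 ± 0.06 from day 3 to day 4 (adjusted p = 0.0003), and then changed by -0.50 ± 0.06 to day 6 (adjusted p = 2.08e-07). The log2 fold change from day 0 to day 8 was 0.65 ± 0.06 (adjusted p = 2.09e-09), and the difference of -0.08 ± 0.06 between days 8 and 1 was not called (adjusted p = 0.225), except with library totals, where it was -0.16 (adjusted p = 0.0245). The rise of 0.17 from day 1 to day 2 lost its call without replicate 1 (adjusted p = 0.149) or replicate 2 of day 1 (0.0648), without replicate 2 of day 2 (0.177) and with library totals (0.213). The fall of -0.17 from day 2 to day 3 lost it without replicate 2 of day 2 (adjusted p = 0.185), without replicate 1 of day 3 (0.213), with library totals (0.382) and with DESeq2 (0.0539).

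The other ligands of the family were rare. EGF had at most 2 counts in a library, NRG3 at most 2 and NRG4 at most 4, and none of these was tested. NRG2, a neuregulin related to NRG1, had 2 and 0 counts on day 0, 0 and 1 on day 1, 3 and 2 on day 2, 5 and 2 on day 3, 11 and 17 on day 4, 52 and 58 on day 6, and 99 and 79 on day 8. The libraries of days 4, 6 and 8 were thus above all earlier ones, and NRG2 passed the filter through those 3 days. The ratio of 178 counts on day 8 to 2 on day 0 was 86.2 per library size, with a 95% counting interval of 23.5 to 717. This interval too covers counting error only and is no test, since the later counts let NRG2 pass the filter. Its level on day 8, at 4.70 and 3.40 CPM, was far below the 91.3 and 96.0 CPM of NRG1.

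EPGN, EREG, AREG and BTC are consecutive genes on chromosome 6 in the RefSeq annotation of assembly ARS1.2, with 0 genes between neighbours. Their courses differed in direction. From day 0 to day 8 AREG and BTC were higher and EREG was lower, and from day 1 to day 8 BTC was higher while EREG and AREG were lower. EPGN had its highest counts on day 8. AREG and EREG rose at day 1, when BTC, at -0.25 ± 0.31 (adjusted p = 0.494), was not called.

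**Figure D2:**
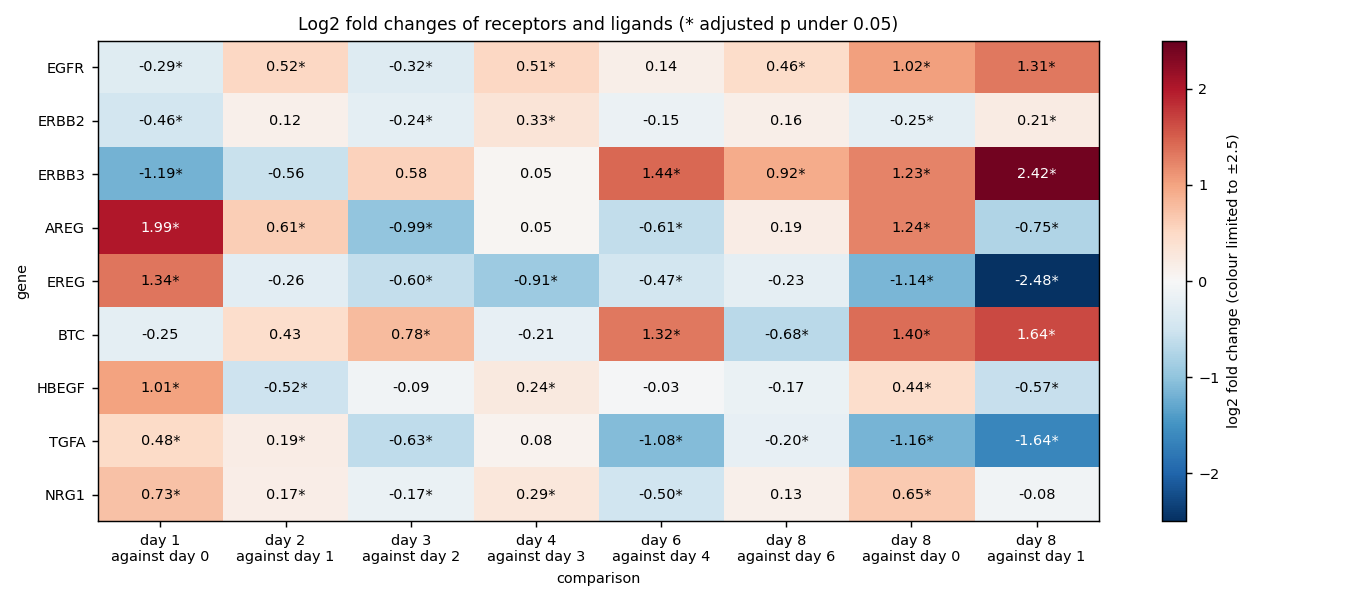
Log2 fold change (colour and printed number, colours limited to ±2.5) of 9 receptors and ligands (rows) in 8 comparisons of days (columns), with an asterisk at an adjusted p under 0.05; EPGN is left out because it had 1 count on day 0. The 5 ligands called at day 1 were all higher, by 0.48 (TGFA) to 1.99 (AREG), and the 3 receptors were all lower, at -0.29 (EGFR) to -1.19 (ERBB3).

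The 9 members other than EPGN were also counted step by step. At day 1 against day 0, 5 were called higher (TGFA, AREG, EREG, HBEGF and NRG1) and 3 lower (EGFR, ERBB2 and ERBB3), where 34.8% of all genes tested were higher and 34.5% lower. BTC, at -0.25, close to the -0.29 of EGFR, was not called. From day 1 to day 2, 4 members (EGFR, AREG, TGFA and NRG1) were higher and 1 (HBEGF) lower, beside 25.3% and 23.1% of all genes, and without replicate 2 of day 1 the number called fell from 5 to 3. From day 2 to day 3, 6 were lower and 1 (BTC) higher, beside 24.1% and 21.2% of all genes, and without replicate 1 of day 3 the number called fell from 7 to 4. The 6 that were lower were EGFR, ERBB2, AREG, EREG, TGFA and NRG1. For the fits without 1 library no matching count over all genes is given, so the loss of calls is not read as particular to the members.

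From day 3 to day 4, EGFR, ERBB2, HBEGF and NRG1 were called higher and EREG lower, or 4 and 1, beside 28.8% and 21.6% of all genes. From day 4 to day 6, ERBB3 and BTC were higher and AREG, EREG, TGFA and NRG1 lower, or 2 and 4, beside 23.0% and 31.2%. From day 6 to day 8, EGFR and ERBB3 were higher and TGFA and BTC lower, or 2 and 2, beside 25.6% and 23.2%. Both TGFA and BTC lost their calls without replicate 1 of day 6 and without replicate 2 of day 8. Within the induction medium, from day 1 to day 8, 4 were higher (EGFR, ERBB2, ERBB3 and BTC) and 4 lower (AREG, EREG, HBEGF and TGFA), beside 31.8% and 35.0% of all genes.

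Scaling moved the balance of calls. The share of called genes that were higher was 50.2% for day 1 against day 0 and 56.2% with library totals there, and in the other 5 steps between sampled days it moved further. With library totals in place of scaled library sizes, the share of called genes that were higher moved from 52.2% to 41.8% for day 2 against day 1, from 46.8% to 62.5% for day 3 against day 2 and from 57.2% to 38.8% for day 4 against day 3. It moved from 42.4% to 61.3% for day 6 against day 4 and from 52.4% to 34.9% for day 8 against day 6. The median log2 fold change over all genes shifted from 0.074 to -0.051, from -0.083 to 0.057 and from 0.003 to -0.111 in the last 3 of these steps. Member changes near the size of these shifts depended on the scaling for their call, such as that of HBEGF from day 3 to day 4, at 0.24, which was 0.12 with library totals. The log2 fold changes of ERBB3 (1.44), BTC (1.32) and TGFA (-1.08) from day 4 to day 6 were many times larger in size than the shift of the median in that step.

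Levels were compared between genes as CPM per kilobase of the gene length in the table. On day 0 the order was TGFA at 20.3, ERBB2 at 15.1, EGFR at 10.1, NRG1 at 9.49, EREG at 9.15, AREG at 7.19 and HBEGF at 6.58 CPM per kilobase, followed by ERBB3 at 0.632, BTC at 0.494 and EPGN at 0.0251. TGFA and ERBB2 stood apart from their neighbours in that order, while neighbours overlapped between libraries in the run from EGFR through NRG1, EREG and AREG to HBEGF, as did ERBB3 and BTC. AREG was first in mean level on days 1, 2, 3, 4 and 6, apart from the next gene on days 2 and 3 and overlapping TGFA on days 1 and 4 and EGFR on day 6. On day 8 the order was EGFR at 20.4, AREG at 17.1, NRG1 at 14.8, ERBB2 at 12.7, TGFA at 9.10, HBEGF at 8.94, EREG at 4.14, ERBB3 at 1.49, BTC at 1.31 and EPGN at 0.797 CPM per kilobase. TGFA and HBEGF overlapped there, as did ERBB3 and BTC, and the other neighbours stood apart.

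Summed over the 7 ligands, the level per length was 49.4 and 57.1 CPM per kilobase in the libraries of day 0, 121 and 124.5 on day 2, and 55.2 and 57.2 on day 8. The sums of days 0 and 8 overlapped while that of day 2 was above both. The make-up of the sum differed between the ends of the course. TGFA made up 37.4% to 39.0% of it on day 0 and 15.8% to 16.6% on day 8, and AREG 12.6% to 14.3% on day 0, 35.0% to 36.1% on day 2 and 29.9% to 30.9% on day 8. EREG went from 15.9% to 18.3% on day 0 to 6.99% to 7.73% on day 8, and NRG1 from 17.6% to 18.1% on day 0 to 26.2% to 26.6% on day 8. Among the receptors, EGFR took 36.3% to 41.8% of the summed level per length on day 0 and 58.6% to 59.5% on day 8, and ERBB2 56.0% to 61.0% and 36.5% to 36.8%. ERBB3 held 2.20% to 2.70% on day 0, at most 1.75% on days 1 to 4, and 4.01% to 4.58% on day 8.

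**Figure D3:**
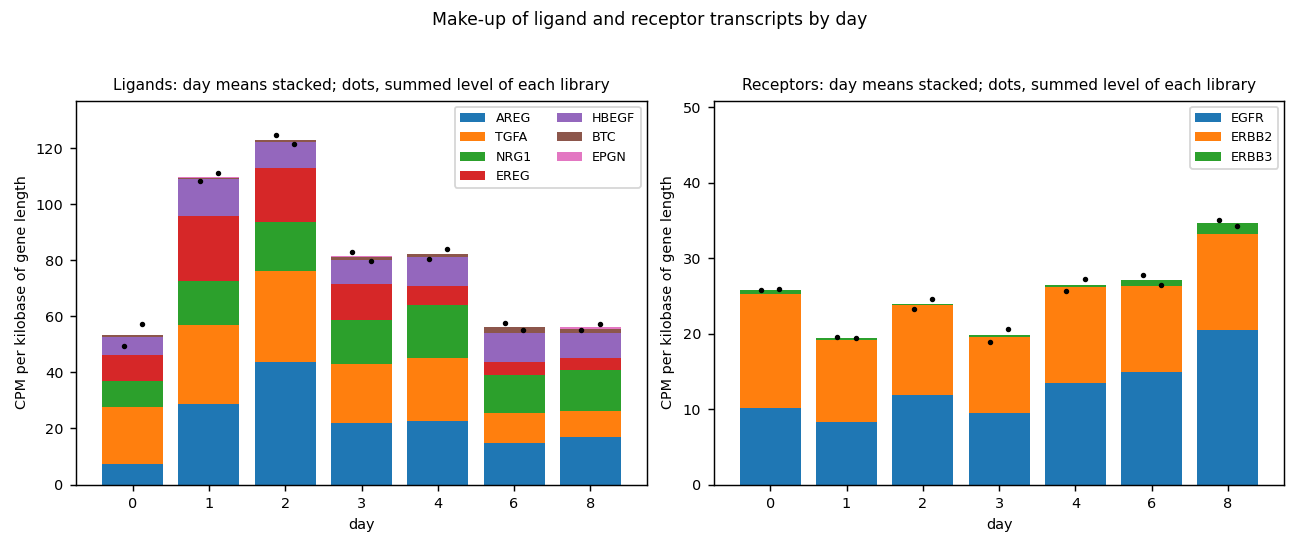
Stacked day means of the ligands (left) and receptors (right) in CPM per kilobase of gene length (vertical axes, starting at 0) by day (horizontal axes); dots give the summed level of each library. The ligand sum reached 121 and 124.5 on day 2 and was 55.2 and 57.2 on day 8, and the receptor sum reached 34.2 and 35.1 on day 8.

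Genes around the receptors were described from 7 lists. Of 11 genes for ligand shedding, 4 were called higher and 6 lower at day 8 against day 0, with a median log2 fold change of -0.44. Over all genes tested, 36.0% were higher and 35.0% lower in that comparison, with a median of 0.02, and 34.8% and 34.5% at day 1, with a median of 0.01. These values are the background for each list. ADAM19, a metalloprotease that can cut neuregulin, went from 41.3 ± 1.159 to 126 ± 3.21 CPM (SD, n = 2), a log2 fold change of 1.61 (adjusted p = 2.29e-17 by edgeR). It had been at 234 ± 5.92 CPM on day 1. ADAM10, a main protease for betacellulin and EGF in mice, rose with a log2 fold change of 0.77. ADAM17, the main protease for TGFA, AREG and HBEGF in mice, was at 146 ± 8.76 CPM on day 0 and 111 ± 5.16 on day 8 and was called lower. RHBDF2, an inactive rhomboid that helps ADAM17 to mature, changed by -1.66 and TIMP3, an inhibitor of ADAM17, by -1.30 on the log2 scale. At day 1 the list had 5 higher and 4 lower genes and a median of -0.16, and ADAM17 was then among the higher ones.

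Of 16 genes listed around receptor attenuation, 8 were higher and 3 lower at day 8 against day 0, beside 36.0% and 35.0% of all genes. Their median was 0.31 beside 0.02. The members need not all act in the same direction, so these values give no direction for attenuation itself. LRIG3, a relative of the EGFR inhibitor LRIG1, rose from 18.3 ± 1.12 to 59.0 ± 1.60 CPM (SD, n = 2), a log2 fold change of 1.69 (adjusted p = 1.52e-16 by edgeR). UBASH3B, which binds the ubiquitin ligase CBL, rose by 1.51. ERRFI1, a feedback inhibitor of EGFR, was at 94.3 ± 0.885 CPM on day 0, 122 ± 2.54 on day 2 and 44.7 ± 0.929 on day 8, a log2 fold change of -1.08 against day 0, and SOCS5 changed by -0.89. At day 1 the list had 8 higher and 4 lower genes and a median of 0.33. Of 14 adaptors that bind active receptors, 6 were higher and 6 lower at day 8, with a median of 0.12, and 8 and 5 at day 1, with a median of 0.32. EPS8, an EGFR substrate that acts on actin, changed by -2.54, from 171 ± 9.94 to 29.4 ± 0.578 CPM, and SHC1 by -0.59, while SOS2 rose by 0.71 and GAB1 by 0.69.

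The kinase routes below the receptors, 19 genes, were split into 9 higher and 10 lower at day 8, with a median of -0.18, and 7 and 11 at day 1, with a median of -0.23. PIK3R1, a regulatory subunit of PI3K, rose by 2.30 on the log2 scale, from 28.4 ± 3.82 to 139.5 ± 0.161 CPM (SD, n = 2). MAP2K2, a kinase that activates ERK, changed by -1.10 and PIK3CA, a catalytic subunit of PI3K, by -1.01.

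Of 17 genes whose transcription is known to follow ERK activity, 14 fell and 1 rose by day 8 against day 0, beside 35.0% and 36.0% of all genes tested, with a median log2 fold change of -1.94 beside 0.02. At day 1, 14 fell and 2 rose, beside 34.5% and 34.8%, and the median was -0.85 beside 0.01. SPRY4, a feedback inhibitor of the route, was at 39.8 ± 1.07 CPM on day 0, 4.80 ± 0.346 on day 1 and 0.528 ± 0.260 on day 8 (SD, n = 2). ETV4, a transcription factor of the ETS family, was at 156 ± 19.1, 34.8 ± 1.66 and 5.66 ± 0.0861 CPM on the same days, a log2 fold change of -4.78 at day 8 (adjusted p = 1.97e-21 by edgeR). FOS, an immediate early gene, was the 1 called higher at day 8, by 0.69. DUSP4, a phosphatase for ERK, was among the higher genes at day 1, at 17.3 ± 0.904 against 6.76 ± 1.07 CPM, and among the lower at day 8, at 2.86 ± 0.153. The lists describe transcripts, and no measure of receptor or kinase activity was analysed here.

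Of 7 surface partners of the ligands, all 7 were lower at day 1 (median -0.73), and 6 were lower and 1 higher at day 8 against day 0 (median -0.82). SDC4 and SDC2, heparan sulfate proteoglycans that can hold heparin-binding ligands such as HBEGF and AREG, changed by -1.89 and -1.42 on the log2 scale at day 8. SDC1, another proteoglycan of that kind, was the 1 that rose, by 0.21, from 601 ± 27.6 to 695 ± 8.33 CPM (SD, n = 2).

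**Figure D4:**
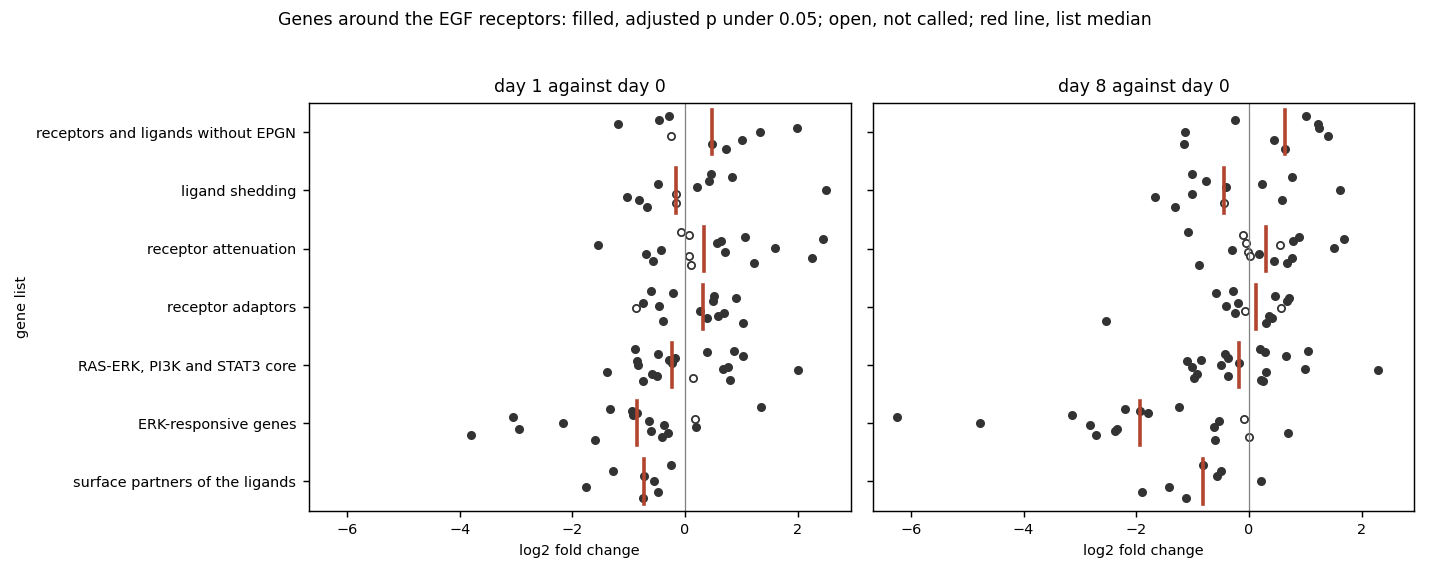
Log2 fold change (horizontal axis) of each tested gene in the lists (rows) at day 1 against day 0 (left) and day 8 against day 0 (right); filled points had an adjusted p under 0.05, open points did not, and red lines mark list medians. The ERK-responsive genes had a median of -0.85 at day 1 and -1.94 at day 8; the first row leaves out EPGN.

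The genes most like each member in course, by Pearson correlation over 14 libraries that share their days, were searched among 9718 genes. Nearest to EGFR were CDA (r = 0.978), CDC42BPG (0.976) and MARCKS (0.976), and nearest to TGFA were SLC39A14 (0.993), BACE2 (0.992) and RPN2 (0.983). Nearest to AREG were MSX2 (0.988), ADM (0.969) and APH1B (0.960), and to EREG TMED7 (0.977), ASPH (0.970) and RAP1B (0.968). NRG1 was nearest to EEF2K (0.989), ADCY9 (0.972) and NPC1 (0.971), and HBEGF to SETD5 (0.948), TAF2 (0.936) and SEC16A (0.923). For the low transcripts, ERBB3 was nearest to LOC102180879 (0.960), FAM83G (0.946) and ELF1 (0.946), BTC to STK38L (0.921), PRICKLE3 (0.917) and RHBDL1 (0.910), and EPGN to PDHA1 (0.921), CLPB (0.915) and USP24 (0.894). EPGN was close to the floor of detection on most days and passed the filter only through day 8, which limits what its correlations can show. No search was made for ERBB2, whose day means spanned less than 2-fold.

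The labelled cell types were set beside the members with marker lists. All 11 fibroblast markers were tested, and their summed level was 33824 to 34322 CPM on day 0 and 44180 to 44217 on day 1. It was 20952 to 21985 CPM on day 3, 29542 to 30226 on day 4 and 18175 to 18507 on day 8. THY1 of this list went the other way, at 191 ± 13.5 CPM on day 0, 378 ± 8.09 on day 4 and 291 ± 8.28 on day 8 (SD, n = 2). Of 13 epithelial markers 12 were tested, with a summed level of 10455 to 11491 CPM on day 0, 3475 to 3486 on day 1, 14706 to 15016 on day 4, 21793 to 22849 on day 6 and 41602 to 42465 on day 8. Most of that sum was KRT5 and KRT14, at 3810 ± 274 and 4388 ± 338 CPM on day 0 and 25368 ± 418 and 14522 ± 194 on day 8 (SD, n = 2). Other markers of the list went the other way, with KRT8 at 1910 ± 109 and 170 ± 0.543 CPM, KRT18 at 158 ± 11.04 and 1.57 ± 0.210 and CLDN4 at 48.7 ± 0.152 and 13.6 ± 1.71 on the same days. The 6 markers of stratified skin epithelium summed to 22.5 to 24.9 CPM on day 0, 10.0 to 10.7 on day 1, 25.9 to 26.1 on day 4, 291 to 299.7 on day 6 and 967 to 1001 on day 8. EGFR and ERBB3 were highest on day 8, as these sums were. They did not follow the sums on every day: on day 4 both sums were above day 0 and ERBB3 was below it, and from day 2 to day 3 EGFR fell while the epithelial sum rose from between 5941 and 5968 to between 8644 and 8903 CPM. The part of a changing cell mix in these results was not tested.

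Of the milk protein markers CSN2, CSN1S1, CSN1S2, LALBA and PAEP had 0 counts and CSN3 had 1 count in all 14 libraries together, so transcripts that define secreting mammary cells were at or near 0 counts at this depth. Leukocyte markers summed to 134 to 135 CPM on day 0 and 9.56 to 10.1 on day 8, with 5 of 6 found by symbol and 2 tested, and the defining marker PTPRC was at 0 counts in all libraries. CD14 alone made up 129 ± 0.146 CPM of that sum on day 0 and 8.33 ± 0.0929 on day 8 (SD, n = 2). Endothelial markers, 5 of 6 tested, summed to 30.1 to 31.3 CPM on day 0 and 4.56 to 6.20 on day 8, and CDH5 had 1 count in all. TGFA and EREG were lower on day 8 than on day 0, as were the fibroblast, leukocyte and endothelial sums. On days 1 and 2 TGFA and EREG were above day 0, as was the fibroblast sum, at 44180 to 44217 and 39335 to 41445 CPM. The leukocyte sum was below day 0 on those days, at 50.5 to 52.4 and 30.3 to 31.2 CPM. So was the endothelial sum, at 21.9 to 22.2 and 18.6 to 19.3 CPM. The fibroblast sum was below day 0 on later days, at 20952 to 21985 CPM on day 3 and 29542 to 30226 on day 4. On day 3 EREG was above day 0, at 37.3 and 27.0 CPM, and TGFA, at 99.9 and 101, lay within the range of day 0. On day 4 TGFA was above day 0, at 104 and 108 CPM, and EREG was below it, at 17.2 and 16.8. The part of fibroblasts, leukocytes and endothelial cells was not tested.

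**Figure D5:**
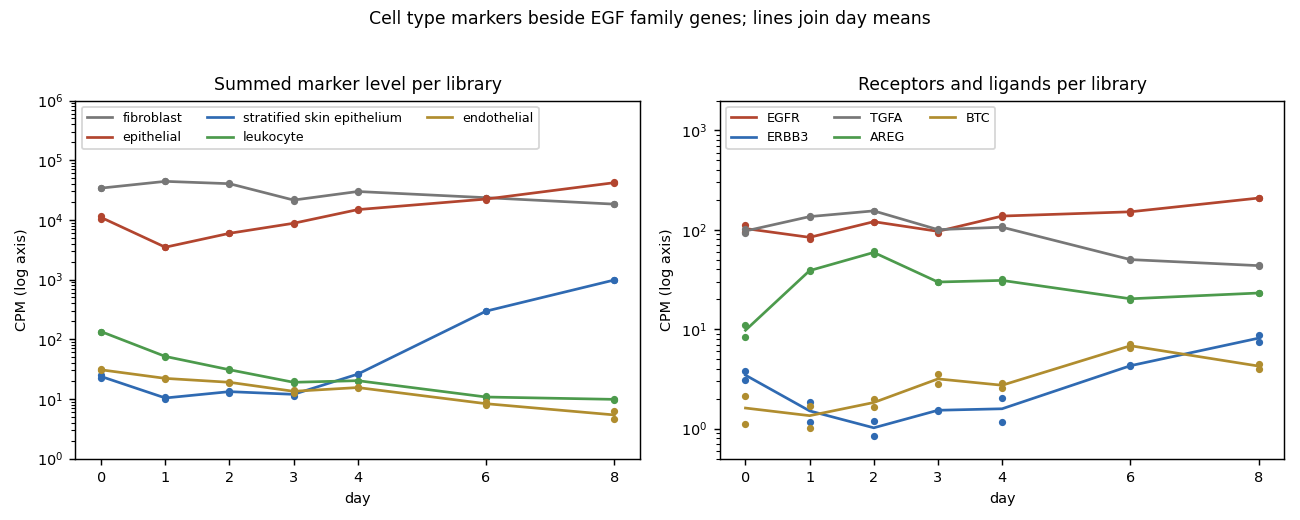
Summed level of cell type markers in each library (left) and level of 5 receptors and ligands (right), both in CPM on log axes, by day; lines join day means, and the milk protein list, with 1 count in all, is not drawn. The epithelial sum was lowest on day 1, at 3475 to 3486 CPM, and highest on day 8, as was EGFR.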

How the data were processed

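Per the labels' protocols, ribosomal RNA was removed from total RNA (Ribo-Zero Gold) before TruSeq library preparation. The authors deposited 1 table with an estimated count and a length per gene for 14 libraries, and 7 day means that were not used. The submitters' processing notes list the tools DESeq2 1.16.1, HTSeq and FastQC 0.10.1. The aligner, genome build and strand setting were not given in the sources used here. Hence no coordinates are printed, and reads of overlapping, antisense or near-identical genes cannot be told apart. Of the deposited estimated counts 90% were exactly whole, zeros included, and 83.1% of those above 0, and all were rounded before testing. Symbols came from the table or, for 3687 genes, from the RefSeq table of assembly ARS1.2.

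Libraries were grouped by the day in their titles. edgeR 4.0.16 (R 4.3.3) fitted all 14 libraries with a group per day after filterByExpr and TMM scaling, with 2-sided quasi-likelihood tests, 7 residual degrees of freedom and Benjamini-Hochberg adjustment over 15712 genes. The SE was obtained from the F statistic (size of the log2 fold change over the root of F), and understates the error of low genes. Chi-square per degree of freedom between the libraries of a day ran from 1.8 (day 1) to 8.12 (day 0), so tests against day 0 may give p-values that are too low, and no library was counted as a copy. The method was tested on simulated data with the same spread for all genes and days, so that test does not cover the unequal spread between days.

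Named were all 10 members and, from each list, up to 2 genes with the largest rise and 2 with the largest fall among those called at day 8 against day 0 with a mean of at least 5 CPM, the untested genes, and, for each member spanning 2-fold over its day means, the 3 genes of at least 10 CPM most correlated with it. ADAM17, DUSP4 and NRG2, which the rule does not name, were added after their values were seen. The result of 1 gene that the rule names is not reported here. Members and lists were chosen with earlier results of these data known. Alternatives were DESeq2 1.42.0 (test and size factors), library totals, other filters, a 2-fold limit, a replicate block, a fit of the compared days alone and each library left out.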

Additional observations from a re-analysis of the deposited data

How the results depend on the processing

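Among 80 member changes (10 genes in 8 comparisons), 55 were called, and 44 of these kept their call under every alternative other than the 2-fold limit. Of 1667 alternative values, 1589 kept direction and call, 34 lost the call, 22 gained it and 22 changed sign, all 22 for changes that were not called. Counts here include EPGN, whose direction its filter fixed. Requiring a 2-fold change left 4 members called at day 1 against day 0, 0 in each of the next 3 steps (days 2, 3 and 4), 3 at day 6 against day 4 and 1 at day 8 against day 6. The 1 at day 8 against day 6 was EPGN, which passed the filter only through day 8. Over all genes the 2-fold limit left 3685, 1145, 873, 1012, 1551 and 1158 in these 6 steps, 4530 at day 8 against day 0 and 4032 at day 8 against day 1. With 1 library left out, the members called ranged from 3 to 6 at day 2 against day 1, 4 to 7 at day 3 against day 2 and 2 to 7 at day 8 against day 6. Matching counts over all genes are not given for those omissions. Sign changes under library totals were HBEGF 0.01 at day 3, AREG -0.07, ERBB3 -0.08 and TGFA -0.05 at day 4, and HBEGF 0.11 and EPGN 0.08 at day 6, each against the sampled day before. Fitting the compared days alone gave AREG -0.01 and ERBB3 -0.02 at day 4 and HBEGF 0.05 at day 6, DESeq2 size factors gave HBEGF 0.03 and EPGN 0.00 at day 6, and DESeq2's test gave HBEGF 0.03 there. Leave-one-out values ran from -0.66 to 0.28 for BTC at day 1, -0.14 to 0.88 for EPGN at day 3, -1.47 to 0.10 for EPGN and -0.40 to 0.40 for ERBB3 at day 4, and -0.65 to 0.93 for EPGN and -0.10 to 0.05 for HBEGF at day 6. The cause was not tested. A minimum of 1 CPM removed EPGN, which then had no value. Same-numbered libraries did not in general deviate together (r of -0.329 to 0.186 over 21 pairs of days, 3 above 0.1, 9604 genes). That gave no sign of pairing by number but cannot exclude it, since paired libraries need not deviate together. A replicate block left 10 members called at day 8 against day 0 and 8 at day 1 against day 0, with 11023 and 10785 genes called. List counts, an alternative chosen after seeing the data, ran from 15 to 16 for ERK-responsive genes called at day 8 against day 0. For receptor attenuation the count ran from 10 to 12 there and from 12 to 15 at day 1 against day 0. For receptor adaptors it ran from 10 to 12 at day 8 against day 0. Depth limits EPGN, NRG2, ERBB3 and BTC most, and 2 libraries a day limit every test.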
